A study of Mus musculus with 9 samples.

Results

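Skeletal muscle genes were followed in RNA from dissected mouse tumors. The set is 40 genes, taken by symbol from a fixed list out of 22195 genes with summed transcripts, and all 40 were found. Of these, 14 are known mainly from fast fibres, 7 from slow fibres (several of them shared with heart) and 19 from both. The tumors were grown by injecting YUMMER1.7 cells, a mouse melanoma line, under the skin of immunocompetent C57BL/6J mice, and treatment began at a tumor volume of 20 to 50 mm3. The 3 groups of 3 libraries received an IgG isotype control, an antibody to B7-H3 (anti-B7-H3) or an antibody to PD1 (anti-PD1), checkpoint proteins that restrain immune cells. Every group carries the same tumor line in the same host strain, and the age of the mice was not given in the sources used here. Tissue is labelled as skin tumor and was measured as a whole. The labels do not say whether each library is from a separate mouse, and p-values thus reflect only the spread among these libraries, which may be technical. Within a group, values are given in the order of replicates 1, 2 and 3.

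Skeletal muscle contracts when myosin thick filaments pull on actin thin filaments inside the sarcomere, the repeating unit between neighbouring Z discs. Calcium released by the ryanodine receptor binds troponin on the thin filament and permits contraction, and a calcium pump then returns it to store. Fast and slow fibres use different genes for the same parts, so the genes present name the kind of fibre. In subcutaneous tissue of the mouse, striated muscle lies close by as the panniculus carnosus, a thin sheet under the skin.

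The promoters of 3 genes are shown because Acta1, Myh4 and Ckm had the highest estimates for anti-B7-H3 against IgG among genes with reads in all groups, and were high and low in the same libraries. Each is the stretch of 250 bases that ends just before the start of the transcript, from RefSeq on the GRCm38.p6 build, written 5′ to 3′ on the strand of the gene. Capitals mark matches to 4 motifs, searched on both strands: CAGCTG, a form of the E box bound by myogenic factors; TATAAA, a form of the TATA box; and the MEF2 and CArG motifs, bound by MEF2 and serum response factor.
Acta1, chr8:123894776-123895025, minus strand: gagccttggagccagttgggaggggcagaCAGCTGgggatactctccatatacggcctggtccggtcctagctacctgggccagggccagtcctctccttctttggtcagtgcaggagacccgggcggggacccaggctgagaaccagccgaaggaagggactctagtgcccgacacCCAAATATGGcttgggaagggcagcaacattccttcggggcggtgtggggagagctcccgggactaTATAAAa
Myh4, chr11:67237562-67237811, plus strand: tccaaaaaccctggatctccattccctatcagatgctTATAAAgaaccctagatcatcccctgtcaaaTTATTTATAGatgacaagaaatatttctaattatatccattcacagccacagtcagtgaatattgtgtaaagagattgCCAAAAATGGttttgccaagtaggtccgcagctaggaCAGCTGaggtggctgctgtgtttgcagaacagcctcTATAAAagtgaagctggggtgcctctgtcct
Ckm, chr7:19410844-19411093, plus strand: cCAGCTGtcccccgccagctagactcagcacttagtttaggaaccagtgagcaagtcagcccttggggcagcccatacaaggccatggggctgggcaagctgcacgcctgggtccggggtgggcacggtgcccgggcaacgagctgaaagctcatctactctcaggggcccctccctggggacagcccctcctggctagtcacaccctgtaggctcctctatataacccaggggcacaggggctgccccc
In Myh4 one TATAAA match on the opposite strand lies inside the MEF2 match. Windows of this length were found for 31 of the 40 genes. CAGCTG stood in 16 of the 31, and in 14.7% of the 27025 genes that have a window. TATAAA stood in 6 of 31 and 14.3% of all genes, MEF2 in 6 and 3.42%, and CArG in 4 and 1.62%. A match is a description of the letters, not of a bound site.

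Estimated reads per library ranged from 8627930 to 27288766. Genes that each held at least 1% of the reads of some library, 13 in all, took 86.4 to 90.9% of gene reads in the IgG libraries and 8.48 to 39.9% in the others, which left 1427787 to 3709869 reads for all other genes under IgG, and 5176231 to 13978290 in the antibody libraries. A background was read from 1510 olfactory and vomeronasal receptor genes, which are normally silent outside sensory tissue. It was 2.99, 1.68 and 3.75 reads per kilobase of coding length under IgG, 0.887, 0.347 and 0.359 under anti-B7-H3, and 0.919, 0.402 and 0.667 under anti-PD1. The melanocyte markers Tyr, Tyrp1, Dct and Mlana were at or near 0 in the antibody libraries, none above 0.291 CPM, and at most 1.84 CPM under IgG, while Mitf stood between 4.23 and 9.64 CPM in all 9. Here CPM is the estimated count scaled to a common library size (counts per 1e6) by TMM, which centres on the typical gene.

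Muscle RNA was present at very unequal levels within the same treatment. The summed level of the 40 genes was 226, 268 and 351 CPM under IgG, 1044, 77.5 and 4488 CPM under anti-B7-H3, and 351, 2270 and 1577 CPM under anti-PD1. In summed CPM, replicate 3 of anti-B7-H3 was the highest library, and replicate 2 of the same treatment was the lowest of all 9. The 3 IgG libraries lay within 1.55-fold of each other, against 57.9-fold under anti-B7-H3 and 6.46-fold under anti-PD1. Group means were 282 ± 63.6 CPM (SD, n = 3) under IgG, 1870 ± 2318 under anti-B7-H3 and 1399 ± 972 under anti-PD1, so the SD exceeded the mean for anti-B7-H3. In bulk RNA, fewer muscle cells and less muscle RNA per cell cannot be told apart.

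The highest and lowest libraries were nearly the same from gene to gene, while the order between them varied more. For all 40 genes the highest library was anti-B7-H3 replicate 3 (32 genes) or anti-PD1 replicate 2 (8 genes), and for 39 genes these were the top pair. The exception was Ttn, for which anti-PD1 replicate 3 came in between. Anti-PD1 replicate 3 ranked directly after the top pair for 22 genes, IgG replicate 3 for 9 and anti-B7-H3 replicate 1 for 5. In the place after that stood anti-B7-H3 replicate 1 for 29 genes. Anti-B7-H3 replicate 2 was lowest in CPM for 34 genes, and 12 genes had 0 reads there. In that library 29 genes were under 1% of their level in replicate 3, and 7 lay between 1 and 10%. The other 4 were Tpm2 at 53.6%, Tnni1 at 31.7%, Tnnc1 at 22.9% and Eno3 at 18.8%. One read equals 0.0277 CPM there, and a count of 0 allows a level of up to 0.0832 CPM. Such limits, and the intervals below, cover counting error only.

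**Figure D1:**
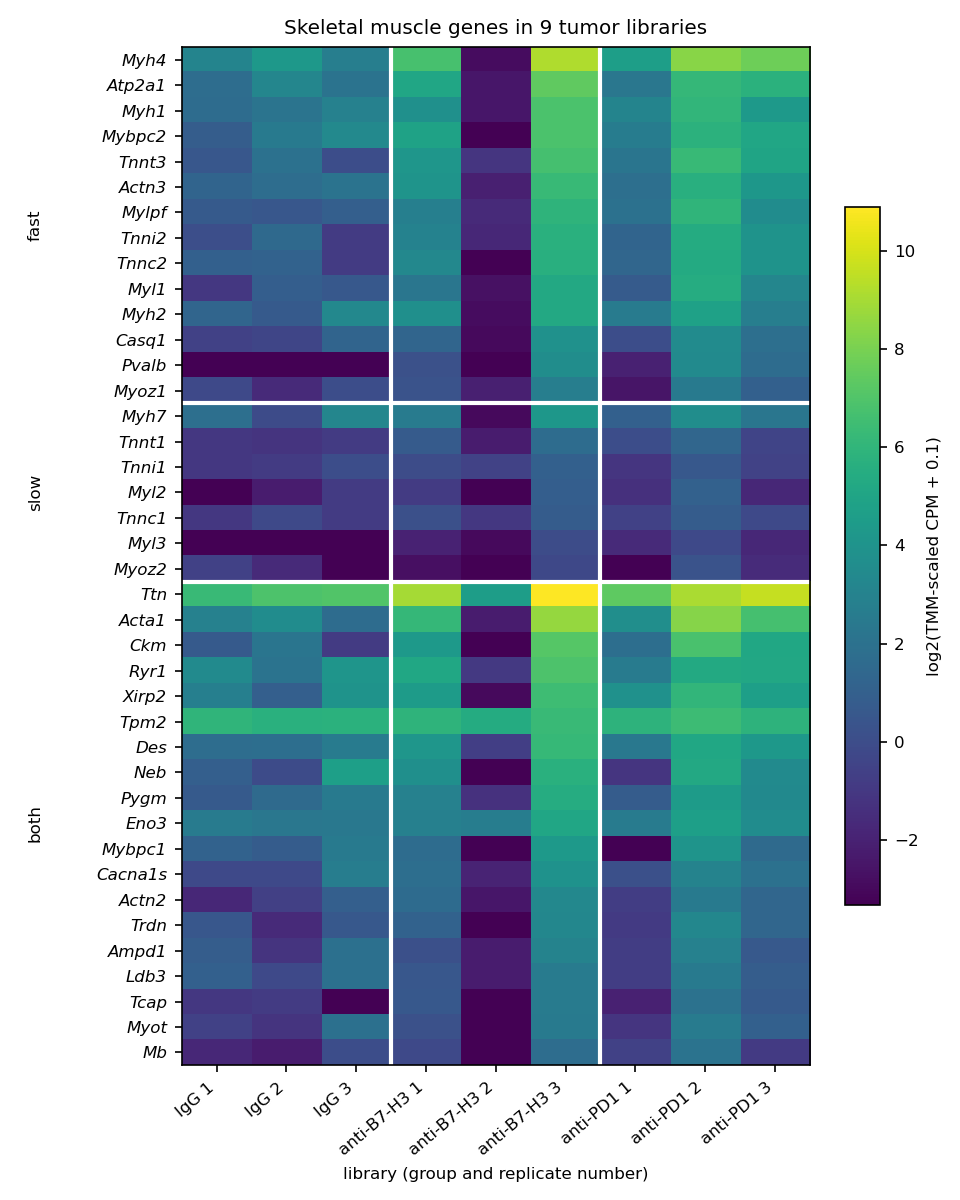
Level of each of the 40 genes (rows, grouped as fast-fibre, slow-fibre and both) in each of the 9 libraries (columns), as log2 of TMM-scaled CPM plus 0.1. Anti-PD1 replicate 2 and anti-B7-H3 replicate 3 are the brightest columns and anti-B7-H3 replicate 2 the darkest, with Tpm2 nearly even across its row.

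Levels were also set against the receptor background of each library. The median muscle gene stood at 1.22, 3.43 and 0.771 times the background per kilobase under IgG, and at 50.8, 3.00 and 1072 times under anti-B7-H3. With anti-PD1 it stood at 16.6, 401 and 102 times. Thus 13, 8 and 29 of the 40 genes were at or below background in the IgG libraries, as were 16 in anti-B7-H3 replicate 2 and 3 in anti-PD1 replicate 1. In the remaining 4 libraries the number was 0. Acta1, the skeletal alpha-actin, stood above background in every library, from 1.65 times in IgG replicate 3 to 37456 times in anti-B7-H3 replicate 3. In IgG replicates 1 and 3, 34 and 39 of the 40 genes lay within 3 times the background, so their muscle levels were close to what this depth can show. By the median over background, anti-B7-H3 replicate 2, lowest in summed CPM, stood above IgG replicates 1 and 3. The order of CPM between it and IgG is thus not an order over background. Overlaps between groups given below are of CPM, without the background taken off.

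**Figure D2:**
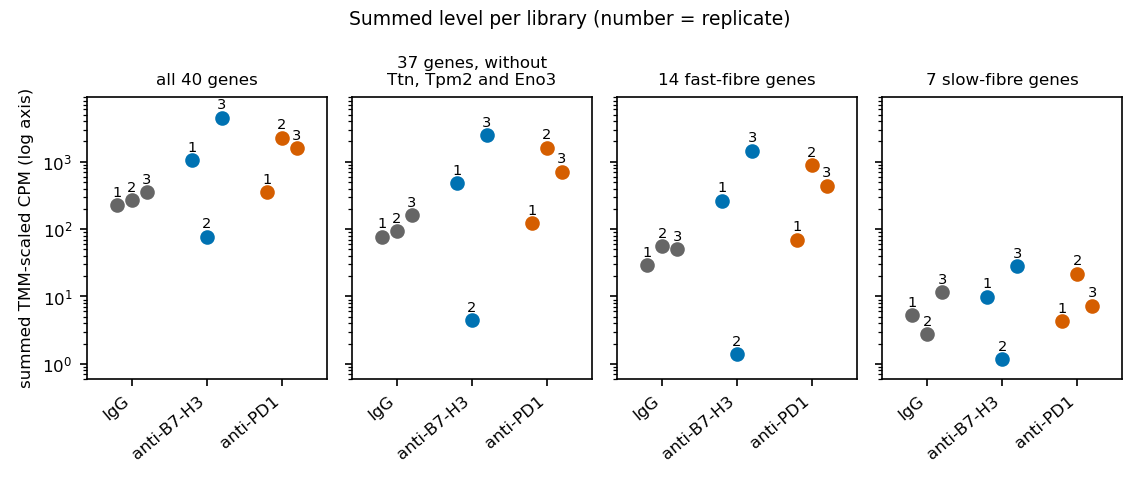
Summed TMM-scaled CPM (log axis) of all 40 genes, of 37 genes without Ttn, Tpm2 and Eno3, of the 14 fast-fibre genes and of the 7 slow-fibre genes, 1 point per library with its replicate number. The fast-fibre sum of anti-B7-H3 runs from 1.38 to 1456 CPM, around the IgG range of 28.9 to 55.4 CPM.

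Of the thick filament, the fast myosin heavy chains Myh2, Myh1 and Myh4 lie next to each other on the plus strand (GRCm38, chr11:67171027-67197517, chr11:67200052-67224575 and chr11:67238029-67260446). Myh4, the myosin of the fastest (IIB) fibres, was 8.40, 19.1 and 6.58 CPM under IgG, 107, 0.037 and 597 CPM under anti-B7-H3, and 24.8, 329 and 215 CPM under anti-PD1. Every anti-PD1 library was above every IgG library, whereas anti-B7-H3 lay on both sides of IgG. Myh1, the IIX myosin, was 3.16, 4.26 and 7.45 CPM under IgG, 13.7, 0.0832 and 117 CPM under anti-B7-H3, and 8.38, 66.1 and 20.4 CPM under anti-PD1. Myh2, the IIA myosin, was 2.37, 1.52 and 9.67 CPM under IgG, 13.4, 0.0369 and 37.9 CPM under anti-B7-H3, and 5.98, 28.0 and 6.54 CPM under anti-PD1. Myh2 overlapped between all groups in CPM, since IgG replicate 3 exceeded anti-PD1 replicates 1 and 3. That library was at 0.965 times the receptor background for Myh2, against 15.3, 277 and 43.0 times under anti-PD1. These genes are close paralogs, and estimated counts may divide shared reads among them in an uncertain way. Myh7, the heavy chain of slow fibres, also made in the heart, was 3.55, 0.846 and 9.24 CPM under IgG, 5.84, 0.0277 and 18.0 CPM under anti-B7-H3, and 1.94, 12.3 and 4.67 CPM under anti-PD1. The groups overlapped for Myh7 too, and its IgG counts were 18, 8 and 20 reads.

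Among the light chains, Mylpf, the fast regulatory light chain, was 1.55, 1.34 and 1.84 CPM under IgG, 7.00, 0.222 and 60.4 CPM under anti-B7-H3, and 3.85, 63.5 and 12.0 CPM under anti-PD1. The IgG libraries were nearly even, within 1.37-fold, and all 3 anti-PD1 libraries were higher. Myl1, the fast essential light chain, ranged from 0.0555 CPM in anti-B7-H3 replicate 2 to 43.8 CPM in anti-PD1 replicate 2. The slow light chains Myl2 and Myl3 reached at most 2.07 and 0.873 CPM, and Myl3 had 0 reads in every IgG library. Mybpc2, the fast myosin-binding protein C, was 1.75, 5.69 and 10.1 CPM under IgG, 28.7, 0 and 115 CPM under anti-B7-H3, and 6.04, 55.6 and 33.5 CPM under anti-PD1. Mybpc1, the slow-type protein C that fast fibres also carry, had 0 reads in anti-PD1 replicate 1 as well as anti-B7-H3 replicate 2.

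The thin filament followed the same libraries. Acta1, its actin (chr8:123891769-123894751, minus strand), was 7.38, 11.8 and 3.21 CPM under IgG, 70.6, 0.112 and 392 CPM under anti-B7-H3, and 13.1, 318 and 105 CPM under anti-PD1. All anti-PD1 libraries exceeded all IgG libraries, although anti-PD1 replicate 1 was close to IgG replicate 2. Tnnt3, the fast troponin that ties the complex to tropomyosin, was 1.36, 3.79 and 0.918 CPM under IgG, 17.5, 0.361 and 105 CPM under anti-B7-H3, and 4.51, 77.4 and 31.1 CPM under anti-PD1. Tnni2, the fast inhibitory troponin, was 0.971, 2.79 and 0.459 CPM under IgG, 7.71, 0.194 and 52.4 CPM under anti-B7-H3, and 2.33, 43.5 and 15.8 CPM under anti-PD1. For Tnni2 the lowest anti-PD1 library lay below the highest IgG library. Tnnc2, the fast calcium-binding troponin, ran from 0 in anti-B7-H3 replicate 2 to 50.4 CPM in replicate 3.

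Slow troponins and tropomyosin varied less. Tnnc1, the calcium-binding troponin of slow fibres and heart, was 0.388, 0.781 and 0.459 CPM under IgG, 1.02, 0.388 and 1.69 CPM under anti-B7-H3, and 0.582, 1.64 and 0.784 CPM under anti-PD1. Tnni1, the slow inhibitory troponin, stayed between 0.364 and 1.93 CPM in all 9 libraries. IgG counts were only 2, 7 and 1 reads for Tnnc1 and 2, 4 and 2 reads for Tnni1. Tnnt1, the slow counterpart of Tnnt3, varied more than these, at 1.58, 0.111 and 3.21 CPM under anti-B7-H3. That is 28.9-fold, against 290-fold for Tnnt3. Tpm2, a beta-tropomyosin also made by smooth muscle and fibroblasts, was 63.1, 51.6 and 53.7 CPM under IgG, 61.2, 43.0 and 80.3 CPM under anti-B7-H3, and 57.6, 84.3 and 58.6 CPM under anti-PD1. Its top libraries were still the same pair, but the whole range of Tpm2 was less than that of any other gene of the set. The 10 listed smooth muscle markers summed to 227 to 315 CPM in all 9 libraries, lowest in anti-B7-H3 replicate 3. Most of that sum was Cald1, at 120 to 207 CPM, with Smtn and Synpo2. Acta2 did not follow the sum, at 13.0, 17.6 and 11.9 CPM under IgG. It was 35.9 and 36.9 CPM in the top pair and 19.6 to 27.3 CPM in the other antibody libraries. Tagln, at 9.4 CPM, and Actg2, at 2.49 CPM, were also highest in anti-B7-H3 replicate 3. Myh11, Cnn1, Lmod1 and Myocd were highest in IgG replicate 3, on 17, 5, 5 and 11 reads.

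Ttn, the giant spring protein that spans from Z disc to thick filament (chr2:76703980-76982547, minus strand), was 80.6, 119 and 130 CPM under IgG, 498, 23.7 and 1895 CPM under anti-B7-H3, and 166, 542 and 797 CPM under anti-PD1. In CPM all 3 anti-PD1 libraries were above IgG, and anti-B7-H3 replicate 2 was below every other library. Over the receptor background per kilobase, Ttn was 1.31, 5.99 and 0.713 times under IgG. It was 23.2 times in anti-B7-H3 replicate 2, above every IgG library. With the longest coding sequence of the set, 106173 bases, Ttn took 23.9% (95% Wilson interval 23.5 to 24.2) of the muscle reads in anti-PD1 replicate 2 and 50.5% (50.0 to 51.0) in anti-PD1 replicate 3. Neb, the ruler of the thin filament, was 1.85, 0.854 and 25.7 CPM under IgG, 13.4, 0 and 50.9 CPM under anti-B7-H3, and 0.349, 38.0 and 10.9 CPM under anti-PD1. IgG replicate 3 held 56 Neb reads and ranked among the higher libraries for this gene, although 0.697 times the receptor background.

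At the Z disc, Actn3, the fast-fibre alpha-actinin, was 2.33, 3.23 and 4.13 CPM under IgG, 16.3, 0.139 and 77.1 CPM under anti-B7-H3, and 3.49, 49.4 and 18.5 CPM under anti-PD1. Des, the intermediate filament desmin that links neighbouring Z discs and also occurs in smooth and heart muscle, was 3.30, 3.46 and 5.97 CPM under IgG, 17.6, 0.527 and 74.4 CPM under anti-B7-H3, and 5.09, 35.0 and 19.1 CPM under anti-PD1. Xirp2, an actin-binding protein of attachment sites, was 6.85, 1.87 and 15.6 CPM under IgG, 22.2, 0.0277 and 89.2 CPM under anti-B7-H3, and 14.4, 66.5 and 25.9 CPM under anti-PD1. For Actn3, Des and Xirp2 the antibody groups overlapped with IgG in CPM through anti-PD1 replicate 1 and anti-B7-H3 replicate 2. The other Z-disc genes, Actn2, Ldb3, Tcap, Myot, Myoz1 and Myoz2, reached at most 9.94 CPM in any library.

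Calcium handling genes showed the same division. Atp2a1, the calcium pump of fast fibres, was 3.30, 8.92 and 4.13 CPM under IgG, 33.4, 0.0832 and 172 CPM under anti-B7-H3, and 4.95, 71.3 and 54.0 CPM under anti-PD1. Ryr1, the calcium release channel, was 10.9, 4.13 and 17.0 CPM under IgG, 34.8, 0.416 and 120 CPM under anti-B7-H3, and 5.89, 39.3 and 36.8 CPM under anti-PD1. Anti-PD1 replicate 1 lay inside the IgG range for both genes. Pvalb, the calcium buffer parvalbumin of fast fibres, had 0 reads in the 3 IgG libraries, then 21, 0 and 490 reads under anti-B7-H3, and 2, 260 and 80 reads under anti-PD1. Pooled over the libraries of a group and set against a floor of 3 counts over the IgG group, Pvalb was at least 29.3-fold higher under anti-B7-H3 and at least 29.7-fold higher under anti-PD1, under anti-B7-H3 replicate 2 at 0. The remaining calcium genes, the voltage sensor Cacna1s, the store protein Casq1 and the anchoring protein Trdn, had their lowest value in anti-B7-H3 replicate 2 and their highest, 15.2, 14.7 and 9.36 CPM, in the top pair.

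Of the metabolic genes, Ckm, the muscle creatine kinase that regenerates ATP (chr7:19404776-19422841, plus strand), was 1.55, 4.57 and 0.459 CPM under IgG, 19.9, 0 and 141 CPM under anti-B7-H3, and 3.42, 114 and 35.4 CPM under anti-PD1. Replicate 2 of anti-B7-H3 held 0 Ckm reads against 5477 in replicate 3. Eno3, the muscle enolase of glycolysis, was 5.83, 4.80 and 5.05 CPM under IgG, 7.10, 6.30 and 33.5 CPM under anti-B7-H3, and 5.89, 25.9 and 11.9 CPM under anti-PD1. It was the one tested muscle gene for which all antibody libraries exceeded all IgG libraries, by as little as 5.89 against 5.83 CPM. Pygm, the muscle glycogen phosphorylase, ranged from 0.305 to 44.5 CPM, Ampd1, the muscle AMP deaminase, from 0.111 to 7.96 CPM, and Mb, the oxygen store myoglobin, from 0 to 4.18 CPM.

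Fibre type was described by the shares of fast and slow genes within a library. Over the reads of Myh4, Myh1, Myh2 and Myh7, Myh4 held 76.5% (95% Wilson interval 74.9 to 78.0) in anti-B7-H3 replicate 1 and 77.6% (77.1 to 78.0) in replicate 3. It held 60.4% (56.3 to 64.4), 75.6% (74.7 to 76.4) and 87.2% (86.3 to 88.0) in the anti-PD1 libraries. Myh4 was thus the leading myosin in these 5 libraries, and Myh7 held 1.89 to 4.77%. In the IgG libraries Myh4 held 48.3% (38.2 to 58.5), 74.0% (68.0 to 79.3) and 19.7% (12.1 to 30.4), over 89, 231 and 71 reads. IgG replicate 3, where all 4 genes were below the receptor background, had its reads spread nearly evenly. Anti-B7-H3 replicate 2 had 6 reads over the 4 genes, too few for a share.

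**Figure D3:**
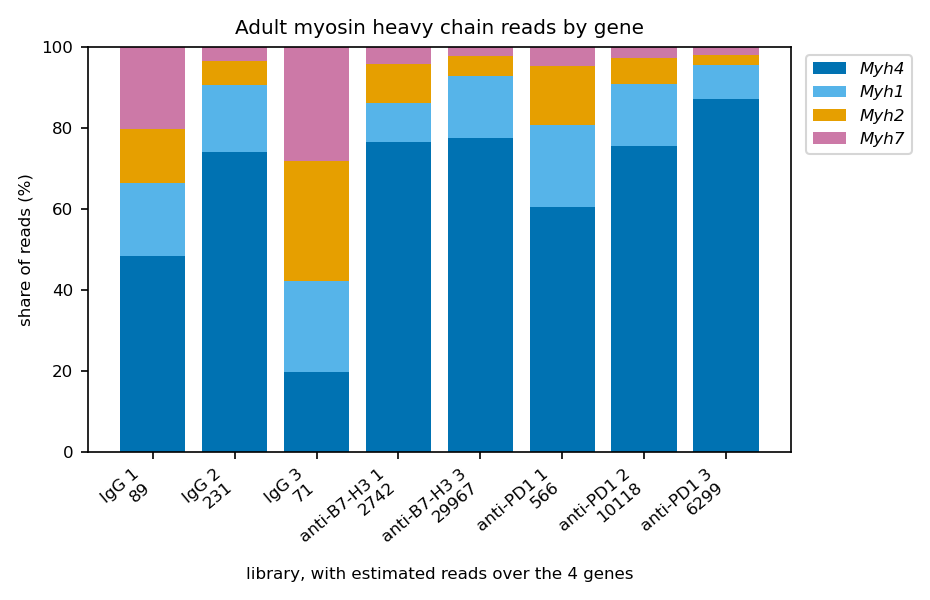
Share (%) of the estimated reads of 4 adult myosin heavy chain genes held by each gene, in the 8 libraries with at least 50 such reads (the number stands under each library). Myh4 holds 60.4 to 87.2% in the 5 antibody libraries shown and 19.7 to 74.0% in the IgG libraries.

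By the deposited TPM the Myh4 share was lower, 67.4 and 65.4% in anti-B7-H3 replicates 1 and 3, and 37.5, 66.2 and 74.8% under anti-PD1. The difference lay largely in Myh7 and Myh1. For Myh7, short listed transcripts weighed heavily in TPM where they held reads. The transcripts of Myh1 were not examined one by one. In anti-PD1 replicate 1, a single estimated read on a Myh7 transcript of 110 bases made 93.1% of the Myh7 TPM, and Myh7 took 40.9% of the 4-gene TPM against 4.77% of the reads. Pairs of fast and slow genes for the same part, in libraries with at least 50 reads for the pair, also lay on the fast side. The fast gene held 82.7 to 97.9% of reads for Tnnt3 with Tnnt1, 89.9 to 96.8% for Tnni2 with Tnni1 and 90.7 to 96.7% for Tnnc2 with Tnnc1. For the light chains it held 93.0 to 98.4% for Mylpf with Myl2 and 96.9 to 98.3% for Myl1 with Myl3, and for Myoz1 with Myoz2 82.4 to 90.0%.

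Anti-B7-H3 libraries were then compared with IgG libraries, which also had a higher receptor background. Of the 40 genes, 38 had enough reads to be tested, and Myl3 and Myoz2 did not. In edgeR's quasi-likelihood test, 0 of 38 were called at an adjusted p under 0.05, where 0.0077% of all 12980 tested genes were called higher and 0.601% lower. The count at an unadjusted p under 0.05 was also 0, where 3.58% of tested genes were higher and 6.96% lower. DESeq2 and limma-voom called 0 as well, with 13 and 0 genes at an unadjusted p under 0.05. Shares of all tested genes at an unadjusted p were taken only for edgeR's main fit. Counts at that p from other fits, here and below, thus have no such share beside them and are not read as a result. All 38 fold estimates were positive, with a median log2 fold change of 2.53 against 0.03 over all tested genes. Pvalb, fitted against 0 reads, lies above the median at its bound too, so the median does not rest on it. Fast-fibre genes had a median of 3.52 and slow-fibre genes 1.15, and these were not tested against each other. Myh4 stood at 4.30 ± 2.16 (SE), Ckm at 4.30 ± 2.32, Acta1 at 4.25 ± 2.16 and Tnnt3 at 4.09 ± 2.00. Ttn, at 2.88 ± 1.28, had the smallest adjusted p in edgeR's test, 0.494 by Benjamini-Hochberg. Smaller estimates were those of Myh7 at 1.15 ± 1.68, Tnnc1 at 0.83 ± 0.73 and Tpm2 at 0.13 ± 0.25. The groups did not overlap for 1 gene, Eno3, against 7.74% of tested genes that were higher without overlap and 8.57% that were lower.

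Both directions of the spread within anti-B7-H3 mattered for this comparison. Without anti-B7-H3 replicate 3 the median fell to 0.75, and Myh7 turned to -0.39. Without replicate 2, the library lowest for muscle genes in CPM, the median was 3.11. There 23 genes were at an unadjusted p under 0.05, with 0 called. For this fit the share of all tested genes at that p was not taken. With limma-voom and quality weights, which lower the weight of libraries that depart from their group, the median was -1.97, and 2 of 38 estimates were positive.

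For anti-PD1 against IgG, 0 of 38 genes were called in edgeR's test, where 0.0077% of all tested genes were called higher and 0.401% lower, and 0 were at an unadjusted p under 0.05, against 7.68% of tested genes higher and 10.9% lower. DESeq2 called 0, with 9 at an unadjusted p under 0.05, and limma-voom 0, with 0. Fitted on only the libraries compared, edgeR's test had 18 genes at an unadjusted p under 0.05, and without anti-B7-H3 replicate 2, a library of the other treatment, it had 16, with 0 called in both. For these fits too, the share of all tested genes at that p was not taken. Every estimate was positive, with a median of 2.34 against 0.01 over all tested genes. Ckm stood at 4.23 ± 2.32, Acta1 at 4.16 ± 2.15, Mylpf at 4.14 ± 2.15, Myh4 at 3.99 ± 2.14 and Ttn at 2.19 ± 1.24. Tnnt3, at 3.97 ± 1.99, had the smallest adjusted p in edgeR's test, 0.338. The groups did not overlap for 10 genes, Acta1, Myh1, Myh4, Mylpf, Tnnt1, Tnnt3, Tnnc2, Ttn, Pvalb and Eno3, against 11.1% of all tested genes that were higher and 11.9% that were lower without overlap. Of these, Pvalb was 0.145 CPM in anti-PD1 replicate 1. That is below the level of 3 counts in the IgG libraries, 0.583, 0.335 and 1.38 CPM. Tnnt1 rested on 2, 3 and 1 reads under IgG. Without anti-PD1 replicate 2 the median was 1.20, and 32 of 38 estimates were positive. Both comparisons share the IgG libraries, so their like sizes are not independent of each other.

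Anti-B7-H3 and anti-PD1 were not separated. In edgeR's test 0 of 38 genes were called, as were 0% of all tested genes in either direction, and 0 were at an unadjusted p under 0.05, against 3.93% higher and 2.55% lower. The groups overlapped for every gene, against 7.57% of all tested genes higher and 7.87% lower without overlap. DESeq2 and limma-voom called 0, with 0 and 5 at an unadjusted p under 0.05. The median log2 fold change was 0.11, against 0.01 over all tested genes. With limma-voom and quality weights it was -3.35, with 1 of 38 estimates positive. Standard errors were wide here too, as for Acta1 at 0.08 ± 1.80, so a difference of several fold in either direction is within the error. The median turned to -1.77 without anti-B7-H3 replicate 3, to -0.25 without anti-PD1 replicate 1 and to -0.08 without anti-PD1 replicate 3. It was 1.31 without anti-PD1 replicate 2 and 0.69 without anti-B7-H3 replicate 2. A test over all 3 groups called 0 of 38 members, against 1.22% of all tested genes.

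**Figure D4:**
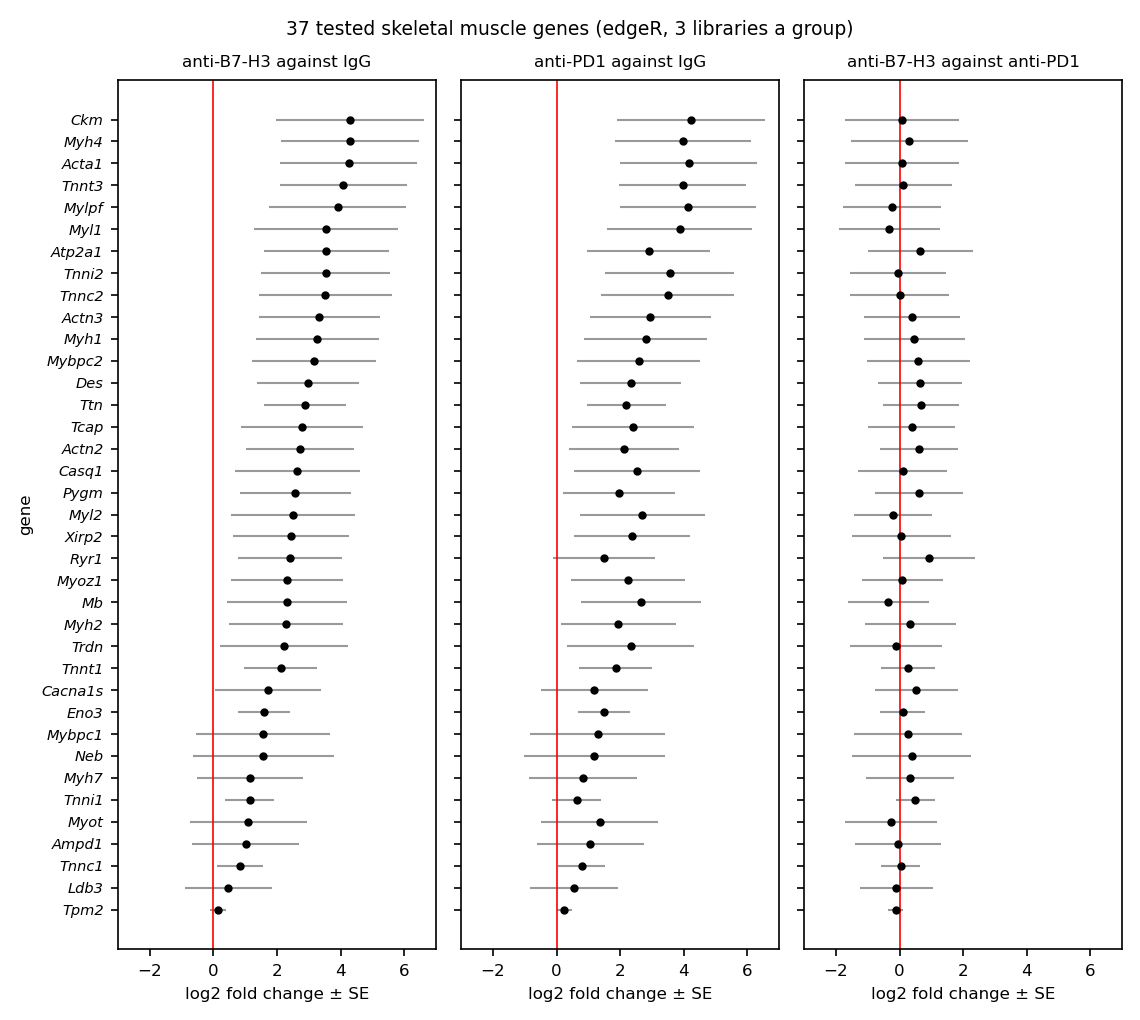
Log2 fold change with its SE for 37 tested muscle genes in each of the 3 comparisons (edgeR, 3 libraries a group; Pvalb, with 0 reads in IgG, is left out). All points lie above 0 against IgG, with wide bars, and near 0 between the antibodies.

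Other markers differed between the same libraries. The 10 macrophage markers summed to 467, 395 and 218 CPM under IgG, 572, 528 and 860 CPM under anti-B7-H3, and 446, 952 and 406 CPM under anti-PD1, so the top pair for muscle was also the top pair for macrophages. The defining macrophage markers Csf1r and Adgre1 were 133 and 82.3 CPM in anti-B7-H3 replicate 3 and 172 and 86.2 CPM in anti-PD1 replicate 2, and 10 of 10 markers had reads in every library. Of the 10, only Mertk was not highest in this pair. Mertk was 29.9 CPM in anti-B7-H3 replicate 3, 35.2 CPM in anti-PD1 replicate 2 and highest, 48.4 CPM, in anti-PD1 replicate 1. Adipocyte markers summed to 2.71 to 10.1 CPM, highest in IgG replicate 3. Plin1, Plin4, Lep, Cidec, Cfd and Retn were highest in that library, on at most 5 reads each. Lpl was instead highest in the top pair, at 3.88 and 3.06 CPM, and Fabp4 in anti-PD1 replicate 3, at 2.98 CPM. Keratinocyte markers summed to 17.9 to 38.6 CPM under IgG and 2.47 to 4.80 CPM in the antibody libraries, with Krt5 and Krt14 at most 0.364 CPM in the latter. Under IgG, Krt14 was 0.388, 9.14 and 2.29 CPM, on 2, 82 and 5 reads, and Krt5 had 4, 19 and 2 reads. Most adipocyte and keratinocyte markers had few reads under IgG, where the receptor background was also higher than in the antibody libraries. The part of these differences in the muscle values was not tested.

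Read coverage by gene length also differed between the high libraries. Between anti-PD1 replicates 2 and 3, the log2 ratio of levels fell with coding length over 10072 genes with at least 50 reads in both (Spearman rho -0.59, across genes, which are not independent). The median ratio was 0.46 among the shortest 20% of genes and -0.46 among the longest 20%. Among 29 muscle genes with that many reads rho was -0.31. Over the 40 genes the ratio of replicate 2 to replicate 3 had a median of 2.76. Long genes lay on both sides of it, with Ttn at 0.680, Ryr1 at 1.07, Xirp2 at 2.57 and Neb at 3.49. So did short genes, with Tnnc2 at 2.62, Tnni2 at 2.75, Myl1 at 4.82 and Mylpf at 5.28. The highest ratios, 10.6 for Myl2 and 9.69 for Mb, rest on 5 and 11 reads in replicate 3. Ttn was the exception among 40, the gene lower in replicate 2. Anti-B7-H3 replicate 3 against anti-PD1 replicate 2 gave rho 0.39 over 10300 genes and 0.64 over 35 muscle genes, and the ratio over the 40 genes ran from 0.641 for Myoz2, on 29 and 27 reads, to 3.50 for Ttn. The part of length in the ratios between libraries was not tested gene by gene.

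**Figure D5:**
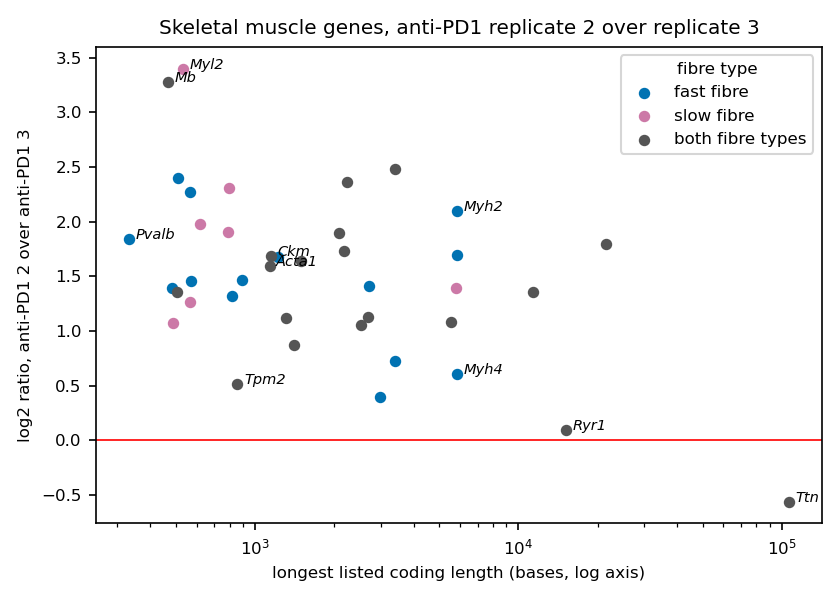
Log2 ratio of the level in anti-PD1 replicate 2 to that in anti-PD1 replicate 3 for each of the 40 muscle genes against its longest listed coding length in bases (log axis), colored by fibre type. All genes but Ttn (-0.56) lie above 0, and Myl2, on 5 reads in replicate 3, is at 3.40.

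Further muscle genes were taken from 5 lists outside the set of 40. Of 22 other sarcomere and Z-disc genes, 20 were tested and 0 were called in any comparison. At an unadjusted p under 0.05 their number was also 0. Their summed level was 33.7, 21.3 and 90.9 CPM under IgG, 58.9, 6.36 and 224 CPM under anti-B7-H3, and 23.0, 148 and 72.7 CPM under anti-PD1. The same libraries were highest and lowest as for the 40 genes, but IgG replicate 3 stood higher. Cmya5, a giant protein near the Z disc, was 4.27, 3.68 and 10.1 CPM under IgG, 13.4, 0.610 and 60.5 CPM under anti-B7-H3, and 3.56, 33.7 and 19.4 CPM under anti-PD1. Excitation-contraction coupling (14 of 18 tested), energy metabolism (8 of 12) and the dystrophin complex (9 of 10) had 0 called in each comparison, and at most 1 of each list was at an unadjusted p under 0.05. Their medians for anti-B7-H3 against IgG were 0.43, 1.18 and 0.32, and for anti-PD1 against IgG 0.08, 0.66 and 0.18. Atp2a2, the calcium pump that slow fibres, heart and many other cells use, was 126 to 204 CPM in all 9 libraries.

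As lists, genes of muscle formation and of the heart were not highest in the top pair. Their summed levels were highest in IgG replicate 3, at 61.5 and 31.6 CPM, the library with the highest receptor background. Of 16 myogenic and developmental genes, 5 were tested 0 were called in any comparison, and the median was -0.55 for anti-B7-H3 and -0.48 for anti-PD1 against IgG. The myogenic factors Myod1, Myog and Myf5 and the satellite cell factor Pax7 were at or below 0.409 CPM in the antibody libraries and at most 2.75 CPM under IgG. Myf6, the factor of mature fibres, did have the same top pair, at 1.49 CPM in anti-B7-H3 replicate 3 and 0.689 CPM in anti-PD1 replicate 2. In the most muscle-rich library, anti-B7-H3 replicate 3, embryonic Myh3 was 2.26 CPM and perinatal Myh8 2.33 CPM. These 2 genes were 3.31 and 2.36 CPM in anti-PD1 replicate 2, and 0.0555 and 0.0371 CPM in anti-B7-H3 replicate 2. In IgG replicate 3 they were 4.85 and 10.7 CPM, on 11 and 23 reads. Pax3, which also marks the melanocyte lineage, was 10.3 to 21.4 CPM everywhere. Of the heart markers, Nppa, Myl7 and Pln were at 0 in anti-PD1 replicate 2 and anti-B7-H3 replicate 3, and Myh6, the main myosin heavy chain of the adult mouse heart, was 0.043 and 0.108 CPM. Nppb, a natriuretic peptide, was 23.9 CPM in anti-B7-H3 replicate 3 and at most 3.63 CPM elsewhere.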

How the data were processed

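RNA depleted of ribosomal RNA was sequenced from 9 libraries, 3 for each treatment. Per the file headers, the authors deposited estimated counts per transcript, not normalized, and TPM values scaled by effective transcript length. A name for the quantifier was not given in the sources used here. FastQC 0.11.8 and the GRCm38 build are named in the submitters' processing notes. Listed lengths equal the annotated coding sequence for 92.2% of the 57362 transcripts that have one, so lengths are coding lengths. Of 58083 transcripts, 57473 matched GENCODE M21 by identifier, and the others held 0.054 to 0.344% of reads.

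Estimated counts were summed per gene and rounded. The test was edgeR 4.0.16 in R 4.3.3, using TMM scaling, filterByExpr and 1 robust quasi-likelihood fit over the 9 libraries with no term but group, and it covered 12980 genes. Adjusted p-values are Benjamini-Hochberg values over these genes with a threshold of 0.05, and SE is the log2 fold change divided by the root of F. The biological coefficient of variation was 28.5%. The test was checked on simulated counts. Levels are TMM-scaled CPM, and TPM was used only for shares within a library. Depth per library and Wilson intervals stand in the text, and counting precision of a gene follows from its reads.

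The members and the gene lists were chosen with earlier results of these data known. The named genes are 14 of the 40, set by sarcomere role and fibre type, and further genes named were picked after their values were seen. Alternatives were DESeq2 1.42.0, limma 3.58.1 (voom with quality weights), other scalings and filters, only the libraries compared, a replicate block and leaving libraries out. Replicate numbers were not treated as pairs.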

Additional observations from a re-analysis of the deposited data

How the results depend on the processing

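Library totals in place of TMM called 33 muscle genes for anti-B7-H3 and 32 for anti-PD1 against IgG, and 8 over any group, with medians of 5.96 and 5.53. That scaling moves the median of all tested genes to 3.37 and 3.15, and to 0.20 between the antibodies, so these calls are read against that shift. Under every other alternative 0 were called. The mean summed level was 62.5, 4525 and 3078 CPM (IgG, anti-B7-H3, anti-PD1) by library totals and 552, 5207 and 3939 CPM by reads in genes under 1%. The Myh4 share with anti-B7-H3 was 77.0% by reads per kilobase.

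With limma-voom and quality weights the median was -1.97 for anti-B7-H3 against IgG and -3.35 against anti-PD1. Against IgG, Acta1 was -3.04, Myh1 -2.72, Myh2 -3.08, Myh4 -4.41, Myh7 -3.38, Mylpf -0.81, Tnnt3 -0.44, Tnni2 -0.89, Tnnc1 -0.08, Ckm -3.81, Ttn -0.20, Atp2a1 -2.89, Pvalb -0.33 and Des -0.91. Against anti-PD1, Acta1 was -5.42, Myh1 -4.76, Myh2 -4.77, Myh4 -7.25, Myh7 -4.16, Tnnt3 -3.29, Tnnc1 -0.46, Ckm -6.50, Ttn -2.12, Atp2a1 -4.85 and Des -2.63. The cause was not tested.

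Leaving out both libraries highest for muscle gave medians of 0.78, 1.17 and -0.66 in the 3 comparisons. Myh7 was then -0.42 and -0.16 against IgG, and anti-B7-H3 against anti-PD1 gave Acta1 -0.76, Myh1 -1.13, Myh4 -1.18, Myh7 -0.26, Tnnt3 -1.06, Tnnc1 -2e-05, Ckm -1.03, Ttn -0.88, Atp2a1 -0.86 and Des -0.47. By library totals Tnni2 was 0.11 and Pvalb 0.07 there.

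Leaving out single libraries, the median ran from 0.75 to 3.19, from 1.20 to 2.78 and from -1.77 to 1.31. Myh7 ran from -0.39 to 1.99 and from -0.08 to 1.67 against IgG. Between the antibodies the ranges were -2.05 to 1.38 for Acta1, -2.25 to 1.59 for Myh1, -1.05 to 1.45 for Myh2, -1.83 to 0.96 for Myh4, -1.19 to 1.23 for Myh7, -2.95 to 1.48 for Mylpf, -2.12 to 1.18 for Tnnt3, -2.45 to 1.12 for Tnni2, -0.55 to 0.58 for Tnnc1, -2.40 to 1.44 for Ckm, -0.94 to 1.26 for Ttn, -1.40 to 1.24 for Atp2a1, -3.33 to 1.41 for Pvalb and -1.16 to 1.33 for Des.

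Same-numbered libraries did not deviate together (correlations -0.32 to 0.18 over 9 pairs). With the number as a replicate block, 0 muscle genes were called, and between the antibodies Myh1 was -0.15, Myh2 -0.29, Myh7 -0.49, Tnni2 0.16 and Pvalb 0.01. Of 792 recomputed values of named genes, 689 kept direction and side of the threshold, 25 passed it (all by library totals) and 78 changed sign. Depth limits the IgG libraries, where most muscle genes have under 100 reads.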
